A study of Mus musculus with 10 samples.

Results

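The 35 genes described here encode 17 integrin alpha subunits, 8 integrin beta subunits and 10 laminin chains, and were listed by name. They are 35 of the 21887 protein-coding genes of the mouse annotation used. Open chromatin was mapped by ATAC-seq, in which a transposase cuts accessible DNA, in nuclei of whole cochleae from CD1 mice, an outbred stock. Both cochleae of an animal were combined, and the animals were 2 days old (P2, 3 animals), 5 days old (P5, 3 animals) or 8 days old (P8, 4 animals). No treatment, mutation or transgene and no sort of a cell type is given in the labels for any age, so each age stands for a mixture of all the dissected cells. The files used here hold 1 list of peaks per age, made over the animals of that age.

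Where peaks of the 3 lists overlapped, by 1 bp or more, they were joined to a single region, and the region was given to the protein-coding gene closest to its middle, up to a distance of 100 kb. The 35 genes took 226 of the 59245 regions that had such a gene, and of 64911 regions in all. At P8 against P2, a region in the P8 list that the P2 list lacks is termed gained, a region in the P2 list that the P8 list lacks is termed lost, and the net gain of a gene is its gained minus its lost regions. Where a peak stands within its own list is given as a percentile, with 100 for the strongest peak by the authors' ranking value, a −log10 p-value. Because there is 1 list per age, no spread between animals is known and no difference between ages was tested. Wilson 95% intervals are given for shares and cover counting error only. They take each region as independent, although several regions can belong to the same gene.

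Integrins are receptors that join an alpha and a beta subunit in the cell membrane, bind the extracellular matrix or other cells, and link them to actin or to keratin inside the cell. Laminins are cross-shaped trimers of an alpha, a beta and a gamma chain that polymerise into basement membranes, where several integrins bind them. In the cochlea, basement membranes lie under the sensory epithelium, around the capillaries of the stria vascularis and around the Schwann cells of the auditory nerve.

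The promoters of Itgb1 and of 3 alpha genes whose products pair with it are printed here because Itgb1 had the highest-ranked region of all members at P2 and P8, and because the partner promoters show what was called at all 3 ages and what was not. The 3 partners are those with the most regions among genes with a called promoter in the sequence table; Itga1, Itga5 and Itgav tied for the last place, and Itga5 was taken after its values were seen. Each line gives the 250 bases before the gene start, 5′ to 3′, from RefSeq on build GRCm38.p6, with capitals marking CpG dinucleotides.
Itgb1, chr8:128685404-128685653, plus strand: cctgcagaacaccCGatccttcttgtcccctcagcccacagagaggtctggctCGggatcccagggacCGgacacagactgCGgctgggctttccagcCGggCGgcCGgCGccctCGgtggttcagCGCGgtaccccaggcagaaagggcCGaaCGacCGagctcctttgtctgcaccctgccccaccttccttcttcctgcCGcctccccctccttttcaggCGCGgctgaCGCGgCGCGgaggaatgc
Itga8, chr2:12301945-12302194, minus strand: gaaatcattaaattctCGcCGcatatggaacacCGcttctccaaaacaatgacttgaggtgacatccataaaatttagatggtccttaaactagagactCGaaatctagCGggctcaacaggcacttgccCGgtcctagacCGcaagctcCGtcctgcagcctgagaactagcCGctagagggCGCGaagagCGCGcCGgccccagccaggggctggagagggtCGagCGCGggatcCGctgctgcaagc
Itga11, chr9:62677605-62677854, plus strand: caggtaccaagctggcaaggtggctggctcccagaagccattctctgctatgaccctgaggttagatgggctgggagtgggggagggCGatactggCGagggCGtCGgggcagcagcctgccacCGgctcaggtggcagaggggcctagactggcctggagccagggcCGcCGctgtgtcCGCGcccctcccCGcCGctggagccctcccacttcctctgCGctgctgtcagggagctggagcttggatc
Itga5, chr15:103366792-103367041, minus strand: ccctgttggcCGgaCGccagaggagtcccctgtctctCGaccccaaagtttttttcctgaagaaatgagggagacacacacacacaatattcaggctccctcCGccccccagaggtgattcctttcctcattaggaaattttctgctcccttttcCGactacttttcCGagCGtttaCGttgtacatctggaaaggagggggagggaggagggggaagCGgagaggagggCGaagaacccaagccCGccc
The Itgb1 window has 68.0% GC and 21 CpG dinucleotides, the Itga8 window 56.4% GC and 18, the Itga11 window 68.4% GC and 12, and the Itga5 window 55.6% GC and 11. Over all 32851 promoter windows of that length the medians were 52.4% GC and 6 CpG dinucleotides, and over the 11241 windows called at all 3 ages they were 61.6% and 17. The promoters of Itgb1, Itga8 and Itga5 overlapped a region called at P2, P5 and P8, and that of Itga11 overlapped a region called at P2 and P5 and not at P8. The Itgb1 and Itga8 windows are richer in CpG than the median called window, and the Itga11 and Itga5 windows are poorer.

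The whole lists hold 52085 (P2), 47683 (P5) and 43878 peaks (P8); the later lists are shorter, and losses outnumber gains over all genes. Read depth is unknown from these lists. Regions were also counted at marker genes of cell types. Hair cell genes had 32, 25 and 21 regions at P2, P5 and P8, and supporting cell and cochlear epithelium genes 35, 36 and 33. Stria vascularis genes had 54, 44 and 39, and fibrocyte and mesenchyme genes 25, 20 and 23. Genes of tissue that a dissection can carry were also called, with 31, 33 and 46 regions for bone, 18, 14 and 12 for skeletal muscle, 34, 22 and 25 for Schwann cells and glia, and 41, 26 and 30 for endothelial cells. Bone markers had 18 regions gained and 3 lost at P8 against P2. Of all protein-coding genes, 72.2% had a region at some age, so these counts cannot show which tissues were present. The part that any of these cell types has in the integrin and laminin results was not tested. In a mixture of cells, fewer cells with an open region and a less open region in the same cells cannot be told apart.

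Of the 35 genes, 33 had a region at some age, against 72.2% of all protein-coding genes; Itgam and Itgax, which encode alpha subunits of myeloid integrins, had none. The P2, P5 and P8 lists held 164, 162 and 147 regions of the members. A region was called at all 3 ages in 95 of 226 cases (42.0%, interval 35.8–48.6%), against 51.9% over all genes. By class, 46 of 103 integrin alpha regions (44.7%, 35.4–54.3%), 27 of 50 integrin beta regions (54.0%, 40.4–67.0%) and 22 of 73 laminin regions (30.1%, 20.8–41.4%) were called throughout. Laminin regions were therefore the least often shared by all 3 lists, with an interval below the share over all genes. Members' regions also lay less often at a gene end, 37 of 226 (16.4%, 12.1–21.8%) against 27.2% over all genes, and in the middle or lower part of their lists, with median percentiles of 42.4 at P2, 41.7 at P5 and 37.6 at P8 against 51.3, 51.4 and 51.2 over all genes. The part of position and rank in the lower share called throughout was not tested.

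**Figure D1:**
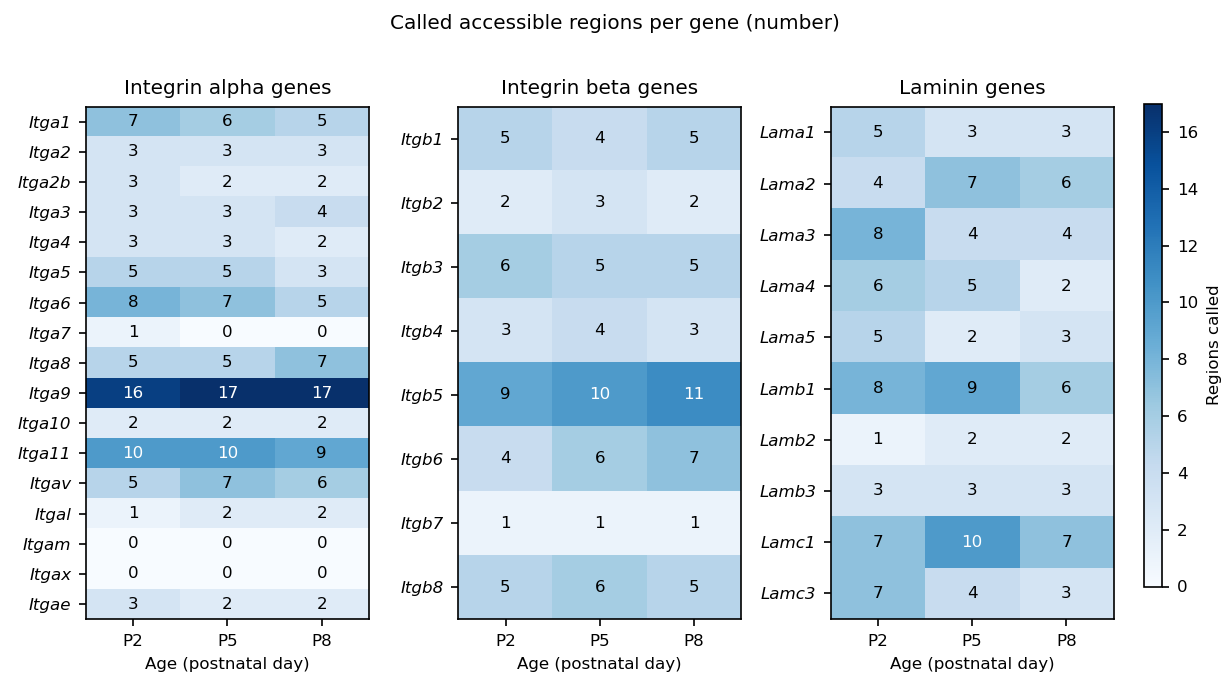
Number of called accessible regions given to each integrin alpha, integrin beta and laminin gene (rows) at P2, P5 and P8 (columns), with 1 peak list per age and darker cells for more regions. Itga9 has the most regions at each age (16, 17 and 17), Itgb6 goes through 4, 6 and 7, and Lama4 through 6, 5 and 2.

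Between P8 and P2, members gained 43 and lost 60 of the 207 regions called at either age. Over all genes 13.8% of such regions were gained and 27.3% were lost. The 3 classes differed in their counts: integrin beta genes gained 11 and lost 7 of 46 regions, integrin alpha genes gained 20 and lost 26 of 95, and laminin genes gained 12 and lost 27 of 66. The lost share was 15.2% (7.57–28.2%) for integrin beta, 27.4% (19.4–37.1%) for integrin alpha and 40.9% (29.9–53.0%) for laminin, and the intervals of the beta and laminin classes did not overlap. The laminin interval starts above the 27.3% over all genes. Many of these regions share a gene, so the intervals do not test the classes. The lost counts also moved with the settings described below. At equal list length laminin genes lost 19 regions and integrin beta genes 6. With an IDR of at most 0.01 they lost 25 and 10. Over all genes the lost regions went from 15252 to 9831 and to 13365. The gained share was 23.9% (13.9–37.9%), 21.1% (14.1–30.3%) and 18.2% (10.7–29.1%) for beta, alpha and laminin, so the classes stood closer together in gains than in losses.

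Gains made up 61.1% (38.6–79.7%) of the changed integrin beta regions, 43.5% (30.2–57.8%) of the changed integrin alpha regions and 30.8% (18.6–46.4%) of the changed laminin regions, against 33.5% over all genes. The laminin share lies near that of all genes, and the interval of the beta share starts above it. The shorter P8 list bears on these shares. When each list was held to its 43878 highest-ranked peaks, all genes had 49.3% gains, and the shares became 64.7% for integrin beta (11 gained, 6 lost), 58.5% for integrin alpha (24 gained, 17 lost) and 45.7% for laminin (16 gained, 19 lost). The order of the classes was the same, but members in all then gained 51 and lost 42 regions, the direction for integrin alpha turned, and each class's interval held the share over all genes. The order of the classes and the direction for integrin beta did not hold under all thresholds. With an IDR of at most 0.01, gains were 41.2% for integrin beta (7 gained, 10 lost), 23.3% for integrin alpha (7 gained, 23 lost) and 34.2% for laminin (13 gained, 25 lost). Among changed regions also called at P5, gains were 37.5% for integrin beta (3 gained, 5 lost), 50.0% for integrin alpha (10 gained, 10 lost) and 45.0% for laminin (9 gained, 11 lost). Over all genes the share was 28.9% with an IDR of at most 0.01 and 36.6% among changed regions also called at P5.

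**Figure D2:**
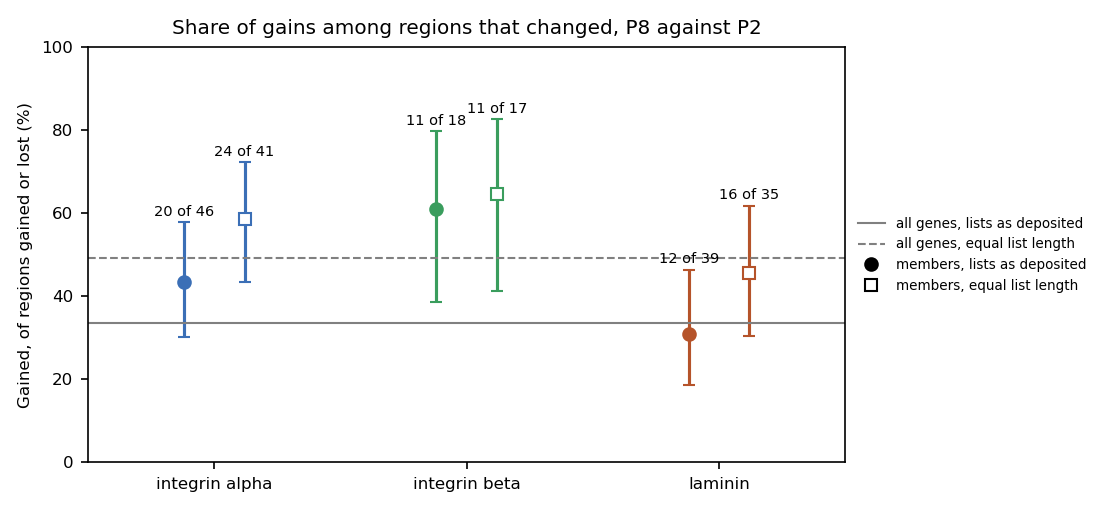
Share of gains among regions gained or lost at P8 against P2 for each class of gene, from the lists as deposited (filled circles) and from lists of equal length (open squares); bars are Wilson 95% intervals for counting error, labels give gained of changed regions, and horizontal lines give the share over all genes (33.5% as deposited, 49.3% at equal length). In both settings integrin beta genes lie highest and laminin genes lowest, and at equal length every bar crosses the dashed line.

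The steps between neighbouring ages split these changes. At P5 against P2, members gained 41 and lost 43 of 205 regions, beside 12.5% gained and 20.8% lost over all genes. Laminin genes gained 16 and lost 21, integrin alpha genes gained 18 and lost 19, and integrin beta genes gained 7 and lost 3. At P8 against P5, members gained 30 and lost 45 of 192 regions, beside 12.7% gained and 18.8% lost over all genes, with 8 gained and 18 lost for laminin, 13 and 18 for integrin alpha, and 9 and 9 for integrin beta. Laminin genes thus had more losses than gains in both steps, as did all genes. Integrin beta genes had more gains than losses at P5 against P2 and equal numbers at P8 against P5. The laminin direction at P5 against P2 did not hold at equal list length (13 gained, 13 lost) or with regions inside the gene alone (15 gained, 14 lost). Gains were 43.2% of the changed laminin regions in that step, against 37.6% over all genes. The integrin beta direction at P5 against P2 turned with an IDR of at most 0.01 (3 gained, 8 lost) and in the upper 50% of each list (1 gained, 3 lost).

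Per gene, 9 of the 33 members with a region had a net gain at P8 against P2, 15 had a net loss and 9 had neither, where 13.9% of all genes with regions had a net gain and 38.2% a net loss. A net gain of at least 2 regions was seen in 4 members (3.22% of all genes) and a net loss of at least 2 in 9 members (14.8% of all genes). Genes with more regions can change by more, and the 35 members had a median of 6 regions, so these counts are descriptions of the members. The 4 members with the larger net gains were Itgb6, Itga8, Itgb5 and Lama2. The 9 with the larger net losses were Lama3, Lama4, Lamc3, Itga6, Itga1, Itga5, Lama1, Lama5 and Lamb1, so 6 of the 10 laminin genes and none of the 8 integrin beta genes were among them.

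**Figure D3:**
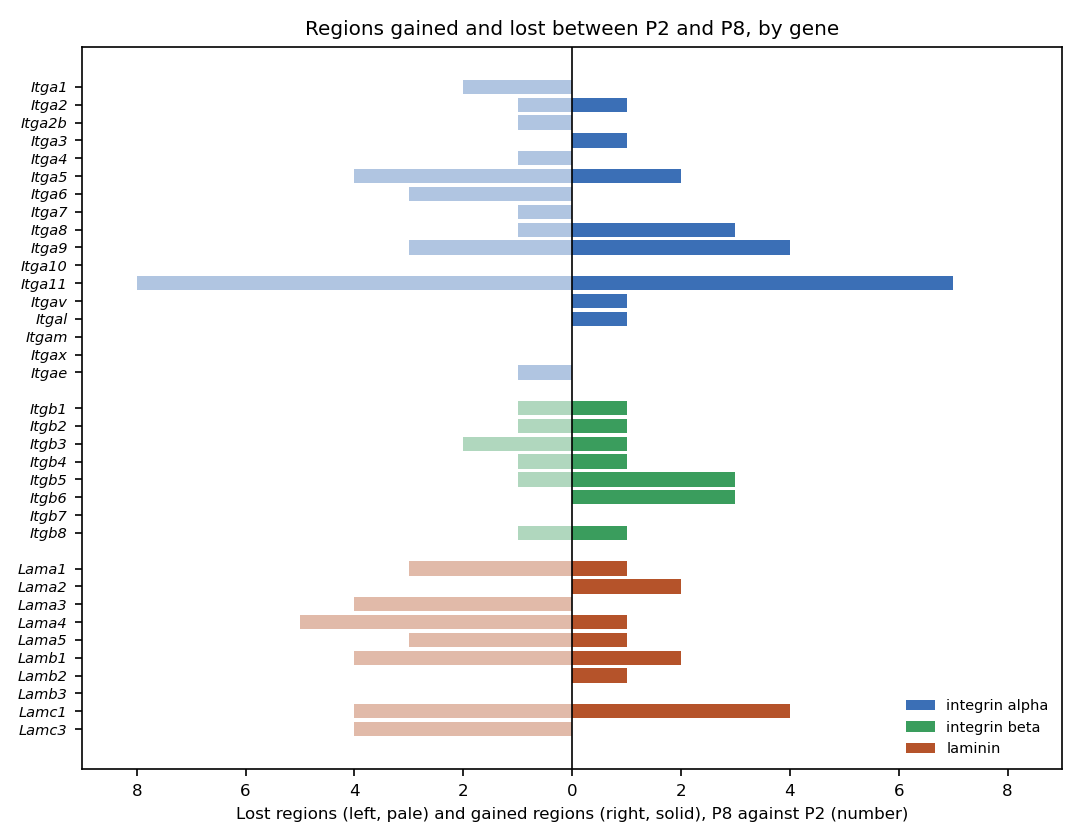
Regions gained (solid bars, right of 0) and lost (pale bars, left of 0) at P8 against P2 for each of the 35 genes, in numbers of regions. Itga11 has the most turnover with 7 gained and 8 lost, Itgb6 and Lama2 have gains and no losses, and Lama3 and Lamc3 have 4 losses each and no gains.

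Among integrin beta genes, Itgb1 encodes the subunit shared by most matrix-binding integrins. It had 5, 4 and 5 regions at P2, P5 and P8, and gained 1 and lost 1. The region at its start, chr8:128685485-128686078 (mm10), stood at percentiles 94.4, 91.9 and 93.2, in the upper 10% of every list. No other member's region at its own gene end reached the upper 10% of a list.

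Itgb6 encodes an epithelial subunit that pairs with the alpha subunit from Itgav and activates latent TGF-beta. It had 4, 6 and 7 regions at P2, P5 and P8, with 3 gained and 0 lost, and a net gain of at least 3 was seen in 0.918% of all genes. All 3 gained regions lie inside the gene, at percentiles of 30.1, 37.2 and 36.2 in the P8 list, so none was in its upper 50%. The region 19061 bp from the gene end, was also called at P5, at percentile 45.2. The highest-ranked Itgb6 region, chr2:60688970-60689503, was called at every age, at percentiles 82.3, 73.9 and 82.1, and was the highest of any integrin beta region away from gene ends in the P8 list. The gained regions of Itgb6 are thus added to a set of 4 regions that were called at all 3 ages. Under assignment by nearest gene start instead of nearest gene body the gene had 3 gained and 3 lost regions.

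Itgb5 encodes a vitronectin receptor subunit, and had 9, 10 and 11 regions with 3 gained and 1 lost. Its 3 gained regions stood at percentiles 13.2, 18.2 and 44.0 in the P8 list and none of them was called at P5. The lost region of Itgb5 was called at P5. Its net gain therefore became −1 when only changed regions also called at P5 were counted. Itgb8, whose product activates TGF-beta with the subunit from Itgav, gained 1 and lost 1 of its 7 regions. Its gained region, chr12:119227839-119228348, was called at P5 at percentile 23.8 and at P8 at percentile 52.2, while the region next to the gene start stood at 82.7, 80.7 and 84.0. Itgb8 is thus the integrin beta gene with a gained region in the upper 50% of the P8 list. Itgb3, a subunit of platelets, osteoclasts and vessels, gained 1 and lost 2 regions. The gained region and 1 of the lost ones have middles 510 bp apart, so a shift of the called place cannot be told apart there. The strongest Itgb3 region at P2 and P5, chr11:104625888-104626394, stood at percentiles 86.4, 86.0 and 76.5. It was the highest of the class away from gene ends at P2 and at P5. Itgb4, which anchors hemidesmosomes to keratin, gained 1 and lost 1 of 4 regions.

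Among integrin alpha genes, the collagen receptors were read first. Itga11, which encodes a fibroblast collagen receptor, had 10, 10 and 9 regions, but 19 separate regions in all, with 7 gained, 8 lost and 2 called at all 3 ages. The similar numbers at P2 and P8 thus came largely from different called regions. Whether places changed or weak peaks crossed the threshold of a list was not tested. The region over the printed Itga11 promoter, chr9:62677550-62678054, stood at percentiles 47.8 and 19.4 at P2 and P5 and was not called at P8. Lost regions in the upper 50% of the P2 list were chr9:62613011-62613509 at percentile 64.8 and chr9:62732516-62733071 at percentile 50.2. The middle of the region at 62613011 is 585 bp from that of a region called at P5 and P8, so a shift of the called place within a wider open stretch and a loss cannot be told apart there. The same holds for the lost Itga11 region at 62645656 and the gained one at 62646434, whose middles are 777 bp apart. Counting a region as called where the full extent of an input peak reached it turned the Itga11 net gain from −1 to 1. All 7 gained regions of Itga11 were in the lower 50% of the P8 list, at percentiles from 0.643 to 37.6.

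Itga1, a collagen and laminin receptor subunit, had 7, 6 and 5 regions, with 0 gained and 2 lost. Its highest-ranked region, chr13:115090019-115090519, stood at 87.4, 92.7 and 90.7, in the upper 10% at P5 and P8, but it overlaps the end of Pelo, a gene nested within Itga1. Itga2, of platelet and epithelial collagen receptors, gained 1 and lost 1 of 4 regions. Itga10, a chondrocyte collagen receptor, had 2 regions, both called at all ages, at percentiles of 57.6, 77.3 and 81.2 near the start and 88.7, 87.1 and 83.5 near the other end. The collagen receptors thus ran from no change (Itga10) to the highest turnover of any member (Itga11).

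Of the laminin-binding alpha genes, Itga6, which pairs with the product of Itgb1 or of Itgb4, had 8, 7 and 5 regions with 0 gained and 3 lost. All 3 lost Itga6 regions lie outside the gene body, at percentiles 44.5, 9.09 and 45.9 of the P2 list, and with regions inside the gene alone its net gain was 0. The region at the Itga6 start stood at 82.2, 78.0 and 69.5. A stronger region, chr2:71719416-71720041, stood at 86.3, 91.5 and 86.8 but lies 67158 bp from Itga6 and within 1 kb of an end of another gene. Itga3 gained 1 and lost 0 of 4 regions, and Itga7, a muscle laminin receptor, had 1 region, called at P2 at percentile 3.62.

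Of the alpha genes whose products bind the RGD sequence of matrix proteins, Itga8 is known from mouse inner ear hair cells, where its loss disturbs stereocilia. It had 5, 5 and 7 regions, with 3 gained and 1 lost. The gained Itga8 regions stood at percentiles 1.46, 29.2 and 6.09 in the P8 list and none was called at P5, whereas the region over its printed promoter stood at 84.5, 79.6 and 82.6. Itga5, the fibronectin receptor subunit, had 5, 5 and 3 regions, with 2 gained and 4 lost. The region over the printed Itga5 promoter stood at 52.9, 9.35 and 29.9. Itgav gained 1 and lost 0 of 7 regions, and its strongest region stood at 86.3, 82.0 and 82.9. In Itga8, Itgav and Itgb1 the region over the promoter window was thus in all 3 lists, high in each, while weaker regions were gained.

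Itga9, a receptor subunit for tenascin and other matrix proteins, had the most regions of any member, 23, of which 21 lie inside the gene. It had 16, 17 and 17 regions at P2, P5 and P8, with 4 gained and 3 lost, and 11 called at all 3 ages. Its net gain of 1 became −5 when peaks needed an IDR of at most 0.01. Itga4, a receptor subunit for VCAM1 and fibronectin, gained 0 and lost 1 of 3 regions.

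The leukocyte integrin genes Itgal, Itgam, Itgax, Itgae, Itgb2 and Itgb7 had at most 4 regions each, where the median over the 35 members was 6. Some other members, such as Itga7, Itga10 and Itga4, also had fewer than 4. Itgal gained 1 and lost 0 of 2 regions, Itgae gained 0 and lost 1 of 3, Itgb2 gained 1 and lost 1 of 4, Itgb7 had 1 region at every age, and Itgam and Itgax had none. The Itgae region with the highest rank, at 87.7, 83.0 and 83.0, lies at an end of Haspin, a gene nested within Itgae. Of 12 macrophage and myeloid markers, 9 had a region, with 16, 17 and 16 regions at P2, P5 and P8, while Adgre1, Cd68 and Mpeg1 had none. Of 11 lymphocyte markers, 6 had 8, 6 and 7 regions, with none for the T cell genes Cd3g and Cd8a. Over all protein-coding genes, 72.2% had a region at some age. Itga2b, the alpha subunit of the platelet fibrinogen receptor, had a region inside the gene, chr11:102466902-102467413, at percentiles 93.4, 94.5 and 89.7, the highest of the alpha class away from any gene end in every list. Of 8 megakaryocyte and platelet markers, 2 had a region, with 3, 1 and 1 regions, and Gp1ba, Gp6, Pf4, Ppbp, Gata1 and Treml1 had none. The high-ranked Itga2b region therefore stood beside few regions at the genes of that marker list. Among members, Itgb3 and Itga2, also of platelets, had 7 and 4 regions. The promoter window of Itga2b itself was not called at any age.

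Among laminin alpha genes, Lama4, whose chain is typical of blood vessels and mesenchyme, had 6, 5 and 2 regions, with 1 gained and 5 lost, and a net loss of at least 4 was seen in 3.21% of all genes. Lost Lama4 regions in the upper 50% of the P2 list were chr10:38908215-38908715, at 61.6 at P2 and 59.0 at P5, and chr10:39066922-39067426, at 66.6 and 18.1. Of the 5 lost regions, 4 were still called at P5, and the region at the gene's end was called throughout, at 46.7, 18.7 and 20.9. Endothelial markers had 6 regions gained and 17 lost at P8 against P2, and their part in the Lama4 result was not tested. With lists of equal length Lama4 gained 1 and lost 4.

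Lama3, which encodes a chain of the epithelial laminin that hemidesmosomes anchor to, had 8, 4 and 4 regions, with 0 gained and 4 lost. None of its 4 lost regions was called at P5, and 1 of them was in the upper 50% of the P2 list, at percentile 51.4. The strongest Lama3 region, 107167 bp from the gene end, stood at 80.7, 83.9 and 81.4, and was the highest laminin region away from gene ends at P5. At equal list length Lama3 gained 1 and lost 2 regions. Lama1, of early embryonic basement membranes, had 5, 3 and 3 regions with 1 gained and 3 lost, and the region at its start, chr17:67696958-67697461, stood at 66.4 and 11.7 at P2 and P5 and was not called at P8. Lama5, the most widespread alpha chain, had 5, 2 and 3 regions with 1 gained and 3 lost; its region at the gene start was called throughout, at 62.9, 57.0 and 43.1. Both had a net gain of 0 at equal list length.

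Lama2, whose chain serves muscle and peripheral nerve basement membranes, was the laminin alpha gene that went the other way. It had 4, 7 and 6 regions at P2, P5 and P8, with 2 gained and 0 lost. The gained region chr10:27322607-27323110, deep inside the gene and 294333 bp from its nearer end, was absent from the P2 list and stood at 77.8 at P5 and 81.4 at P8. Its ranking values were 70.1 and 75.8 in the P5 and P8 lists, and the nearest region called at P2 lay 64858 bp away. It was the highest-ranked gained region of any member. At P8 against P2, markers of skeletal muscle gained 1 and lost 7 regions and those of Schwann cells and glia gained 1 and lost 10. Losses outnumbered gains over all genes too. At P5 against P2, the step in which that Lama2 region was first called, Lama2 gained 4 regions and lost 1. In that step muscle markers gained 1 and lost 5, and Schwann cell and glia markers gained 2 and lost 14. At P8 against P5, Lama2 gained 1 and lost 2. There muscle markers gained 1 and lost 3, and Schwann cell and glia markers gained 6 and lost 3. The part of these cells in the Lama2 result was not tested.

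**Figure D4:**
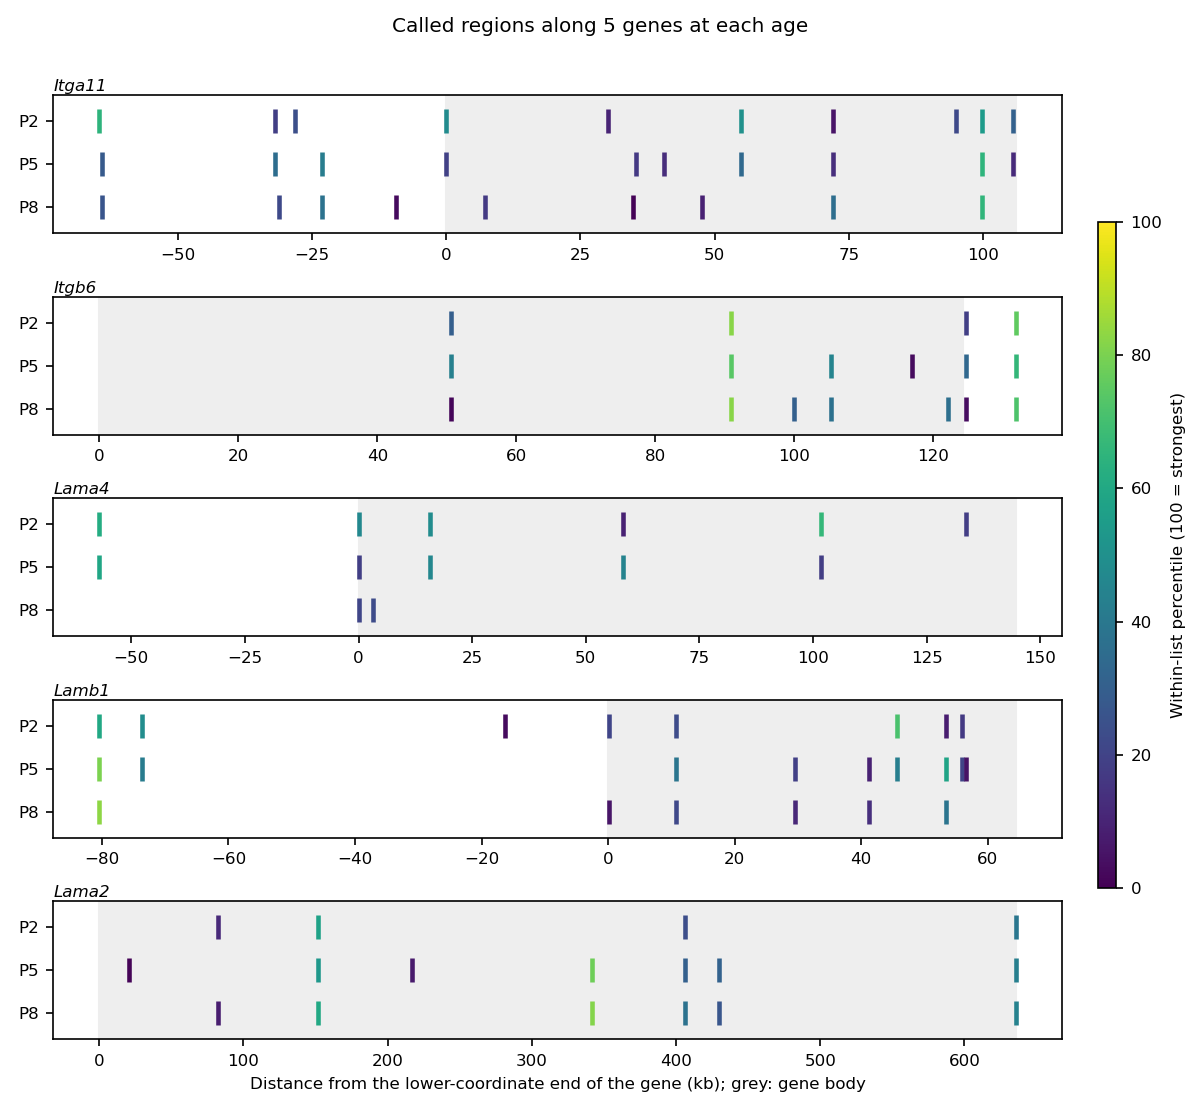
Called regions at P2, P5 and P8 (ticks) along Itga11, Itgb6, Lama4, Lamb1 and Lama2, as distance in kb from the end of the gene with the lower coordinate, with the gene body in grey and the tick colour giving the within-list percentile. Lama4 keeps 1 of its 6 P2 ticks at P8, Lama2 shows a tick near the middle of the gene at P5 and P8 that is missing at P2, and Itga11 has few ticks in line at all 3 ages.

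Among laminin beta and gamma genes, Lamb1, a chain of most laminins, had 8, 9 and 6 regions, with 2 gained and 4 lost. Its strongest lost region, chr12:31310617-31311119, stood at 71.4 at P2 and 42.5 at P5 and was the highest-ranked lost region of any member. A distal region, chr12:31184473-31184983, stood at 60.0, 80.2 and 82.9, the highest laminin region away from gene ends at P8. With regions inside the gene alone, or at equal list length, Lamb1 gained as many regions as it lost. Lamb3, of the epithelial laminin, had 3 regions, all called at every age, the strongest being chr1:193330082-193330582 at 81.8, 74.7 and 73.7, the highest laminin region away from gene ends at P2.

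Lamc1 encodes the gamma chain of most laminins, and had 7, 10 and 7 regions, 14 in all, with 4 gained and 4 lost. The region at the Lamc1 gene end stood at 88.9, 84.9 and 86.3, while chr1:153265002-153265500, at 61.3 in the P2 list, was called neither at P5 nor at P8. Lamc3, a less common gamma chain, had 7, 4 and 3 regions, with 0 gained and 4 lost, and also lost 4 and gained 0 at equal list length. Its lost regions stood between percentiles 24.3 and 46.0 in the P2 list, and its region at the gene end was called throughout, at 69.2, 56.6 and 40.2. Lamc3 and Lama4 were the laminin genes with a net loss of at least 3 in lists of equal length.

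Lamb2, a beta chain of synaptic and kidney basement membranes, had 1, 2 and 2 regions, and its gained region is shown because it covers the gene's start. The gene was chosen for printing after its values were seen.
Lamb2, chr9:108479612-108479861, plus strand: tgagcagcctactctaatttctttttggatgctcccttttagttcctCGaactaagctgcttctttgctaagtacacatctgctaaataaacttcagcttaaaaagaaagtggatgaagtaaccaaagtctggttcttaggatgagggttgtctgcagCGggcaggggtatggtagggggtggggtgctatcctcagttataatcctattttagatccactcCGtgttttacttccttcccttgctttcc
Its 250 bases hold 43.6% GC and 3 CpG dinucleotides, below the medians of all promoters and of promoters called at all 3 ages, and none of the 7 motifs searched. The region over it, chr9:108479600-108480098, was not called at P2 and stood at 73.8 at P5 and 76.7 at P8, with ranking values of 60.8 and 61.6. A second region upstream, with its middle 904 bp from that of the gained region, chr9:108478689-108479202, was called at P2, P5 and P8, at 76.7, 70.4 and 70.6. No input peak of the P2 list reached the gained region even at its full extent.

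Gained and lost regions can be compared by where they stood. Of the 43 gained regions, 3 were in the upper 50% of the P8 list (6.98%, 2.40–18.6%), against 11.5% over all genes, and these were in Lama2, Lamb2 and Itgb8. Of the 60 lost regions, 8 were in the upper 50% of the P2 list (13.3%, 6.91–24.2%), against 12.2% over all genes. By class these 8 were 6 of the 27 lost laminin regions (22.2%, 10.6–40.8%), 2 of the 26 lost integrin alpha regions and 0 of the 7 lost integrin beta regions. Gains and losses of members were thus mostly of peaks in the lower 50% of a list, as over all genes. All 12 gained laminin regions lie inside their genes, as do 34 of the 43 gained member regions (79.1%, 64.8–88.6%), against 61.7% of gained regions over all genes. Member regions lay inside genes more often whatever their change, in 162 of 226 cases (71.7%, 65.5–77.2%) against 58.3% over all genes. For laminin it was 57 of 73 (78.1%, 67.3–86.0%). The higher share is therefore not particular to gained regions.

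Of the 37 member regions near a gene end, 3 were gained and 6 lost, beside 851 gained and 2468 lost of 16135 over all genes, so members were close to all genes there. A region with its middle within 1 kb of an end of its own gene was called at some age for 26 members and at all 3 ages for 21 of them. The 5 exceptions were Itga7 (called at P2), Itga11 and Lama1 (at P2 and P5), and Lama3 and Lamb1 (at P2 and P8). The same count was not made over all genes, so these numbers only describe the members. In the promoter table, 23 of the 35 members had 26 windows, of which 13 (50.0%, 32.1–67.9%) overlapped a region at all 3 ages, against 34.2% of all windows. A further 3 windows, of Itga11, Lamb1 and Lamb2, were called at some ages, and 10 were not called.

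**Figure D5:**
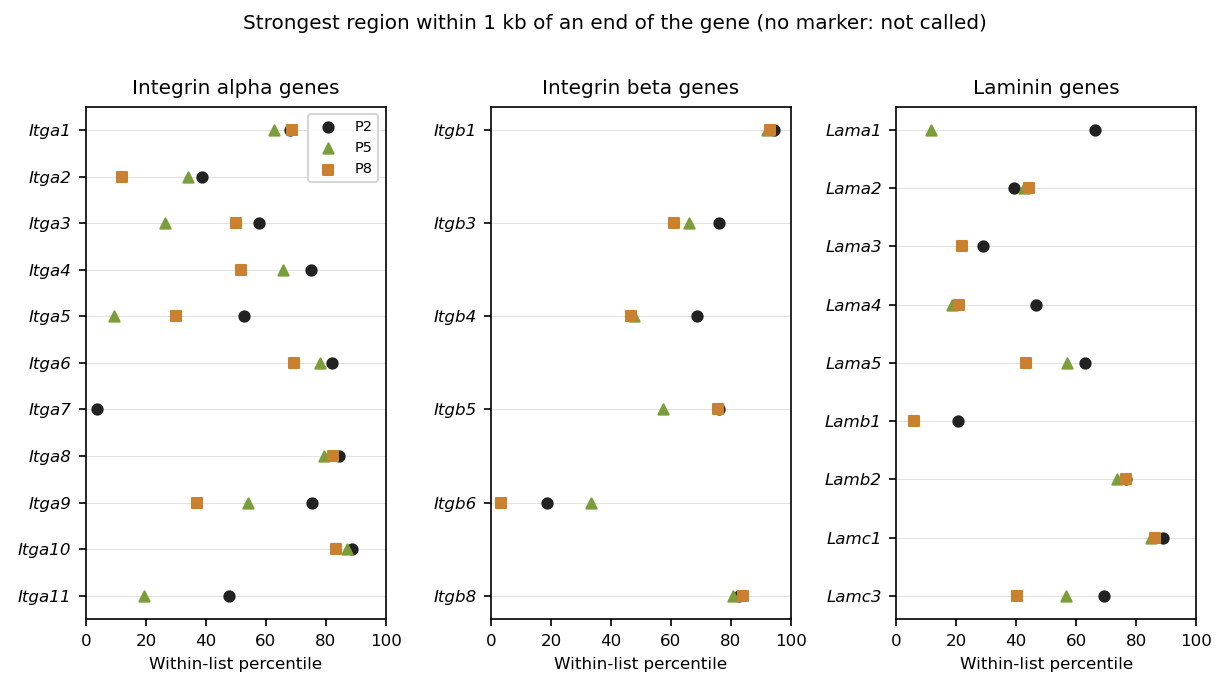
Within-list percentile of the strongest region within 1 kb of an end of each gene at P2 (circles), P5 (triangles) and P8 (squares); a missing marker means that no such region was called. Itgb1 lies above 90 at each age, Itga11 and Lama1 lack a P8 marker, Lama3 and Lamb1 lack a P5 marker, and the P2 marker of Lamb2 is the region 904 bp upstream of the gained one.

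The promoter windows were searched on both strands for 7 short motifs. They were the CCAAT box with its own letters, the GC box of Sp factors, spelled GGGCGG, and the TATA box of core promoters, spelled TATAAA. An AP-1 site was searched as TGANTCA, an E-box of helix-loop-helix factors as CACGTG, a site of TEAD factors as GGAATG and an ETS core as CCGGAAG. No searched motif holds another. In the printed windows, Itgb1 held a GC box starting 151 bases and a TEAD match starting 7 bases before the gene start. Itga5 held a GC box on the opposite strand at 149 and at 6 bases before the start. The Itga8 and Itga11 windows held none of the 7 motifs. A GC box was in 9 of the 26 member windows (34.6%), against 32.7% of all windows and 63.5% of those called at all 3 ages. A TATA box or an E-box was in none of the 26 member windows. Their shares were 12.4% and 6.02% over all windows, and 5.06% and 8.74% over those called at all 3 ages. These matches describe the letters of the windows and mark no bound site.

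Partner genes of the same pathway were counted from 4 lists. Other basement membrane genes gained 28 and lost 53 regions at P8 against P2 (34.6% gains, 25.1–45.4%), near the 33.5% over all genes and close to the laminin share. Their largest net losses were in Col4a2, a collagen IV chain, with 0 gained and 7 lost, and in Nid2, which links laminin to collagen IV, with 0 gained and 6 lost. The largest net gains were in Frem2 (4 gained, 0 lost), Fras1 (5 gained, 2 lost) and the netrin gene Ntn4 (4 gained, 1 lost). The products of Fras1, Frem2 and Frem1 belong to a complex beneath epithelia, and Frem1 had 0 gained and 2 lost. Col4a2, Nid2, Lama4 and Lamc3 thus lost regions without or with few gains, while Frem2, Fras1, Ntn4 and Lama2 had net gains.

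Laminin receptors other than integrins and hemidesmosome genes gained 11 and lost 15 regions (42.3%, 25.5–61.1%), with 0 gained and 2 lost for Dag1, which encodes dystroglycan, and 1 gained and 3 lost for Dst, a hemidesmosome linker, and no gene with a net gain of 2 or more. Other integrin ligands gained 16 and lost 34 (32.0%, 20.8–45.8%), with the largest net loss in Postn, which encodes periostin (0 gained, 5 lost), and a net gain in Fbn1, which encodes fibrillin (2 gained, 0 lost). Integrin activators and adaptors gained 32 and lost 76 (29.6%, 21.8–38.8%), with the largest net losses in Tns1 (4 gained, 14 lost) and Tns3 (2 gained, 8 lost), which encode tensins, and a net gain in Rsu1 (5 gained, 0 lost), part of the complex with integrin-linked kinase. Each list's interval held the 33.5% over all genes, as did those of the integrin alpha and laminin genes.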

How the data were processed

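ATAC-seq was run on cochlear nuclei of 10 CD1 mice. Trimmomatic 0.33 and Subread 1.4.6-p3 are listed with MACS2 2.1.0 and build mm10, per the submitters' processing notes. Their settings, the shift and filtering of reads, and the animals behind the 2 inputs of each list are not given in the sources used here. Lists follow the layout of the irreproducible discovery rate (IDR) method, and all peaks have an IDR of at most 0.05 and a width of 499 bp. The value by which the authors ranked peaks is a −log10 p-value, whose lowest level was 19.5 (P2), 13.5 (P5) and 11.4 (P8), so ranks were used within a list. The deposited score columns hold the −log10 IDR and the −log10 p of each input, and served for the stricter threshold.

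Regions, assignments, counts and Wilson intervals were computed with Python 3.11.15, numpy 2.4.6, pandas 2.3.3 and scipy 1.17.1, after a check on simulated lists. Gene positions came from a RefSeq table (GRCm38.p6, which is mm10) without strand or exons, so exon, intron and UTR positions are not reported; 23 of 35 members had a promoter sequence. List starts were taken as 0-based and raised by 1 for printing, which could be off by 1 bp.

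Members and lists were chosen with earlier results of these data known, as was the rule for named genes. In depth, it describes members whose net gain or net loss reached 2, the 5 with the most regions and those in the upper 10% of a list. It gives coordinates for changed regions in the upper 50% of a list and the highest region of each class away from gene ends, except for Lama3, whose coordinates are not given; further regions and the genes Ntn4 and Frem1 were chosen after their values were seen. Of 218 partner and marker symbols, 1 did not match. Up to 2 partner genes per direction were named. Alternatives were other overlaps, thresholds, list lengths, distances and assignment rules.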

Additional observations from a re-analysis of the deposited data

How the results depend on the processing

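No paired analysis was possible because each list stands for all animals of an age and carries no replicate numbers; leaving out an animal could not be done for the same reason. Values below are gains as a percent of gained and lost regions, P8 against P2 unless stated. With lists of equal length they were 54.8% for all members and 58.5% for integrin alpha, 47.1% for basement membrane genes, 47.5% for other ligands, 48.9% for adaptors, 45.5% for stria vascularis, 44.4% for Schwann cells and 100% for lymphocytes, while all genes had 49.3%; the construction of shorter P2 and P5 lists removes low-ranked peaks of those ages. With an IDR of at most 0.01 they were 31.8% for all members and 23.3% for integrin alpha, against 28.9% over all genes, and 27.3% for integrin beta at P5 against P2. Counting only changed regions also called at P5 left out those in the P2 list alone or the P8 list alone. The shares were then 37.5% for integrin beta, 25.0% for basement membrane genes, 75% for endothelial cells, and 0% for muscle and Schwann cells. Regions inside genes alone gave 0% for muscle and Schwann cells. The upper 50% of each list gave 25.0% for integrin beta at P5 against P2, 71.4% for integrin beta and 14.3% for laminin at P8 against P5, 15.4% for other ligands, 0% for hair cells, supporting cells and mesenchyme, 50.0% for stria vascularis and bone, and 66.7% for muscle. The upper 50% also raised the share of regions at a gene end to 28.4% for all members, 34.3% for integrin alpha and 25.0% for laminin. The other 225 summary values, which leave out the net gains of single genes, lay within the counting interval of the reported ones.

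Net gains of single genes also moved. Of the 35 genes, 24 moved without turning sign in the upper 50% of each list and 17 among changed regions also called at P5. At equal list length 16 moved in that way, and 15 did with an IDR of at most 0.01. Net gains of 6 genes turned sign. Itga1 had 1 in the upper 50%, and Itga9 had −5 with an IDR of at most 0.01. Among changed regions also called at P5, Itga8 had −1, Itgb5 had −1 and Lama5 had 1. Itga11 had 1 with equal list length, 1 by nearest gene start and 1 by the full extent of input peaks. The last alternative, the one leaving out regions with a neighbour within 1 kb and the one counting every gene a region lies inside were chosen after seeing the data. The causes were not tested. Read depth is unknown, so a missing peak may be one below the threshold of its list, and lists made per age give no spread between animals. A shift of a called place and a loss with a nearby gain look alike, and a region can act on a gene other than the nearest. Of the gained member regions 2 of 43, and of the lost ones 3 of 60, were reached by the full extent of an input peak of the age they were missing from.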
